A study of Homo sapiens with 4 samples.

Results

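The HOX clusters are 4 chromosomal arrays of homeobox genes, and their EZH2 peaks were taken from hg19 intervals set by position alone: HOXA at 27.130 to 27.255 Mb of chromosome 7, HOXB at 46.600 to 46.810 Mb of chromosome 17, HOXC at 54.330 to 54.452 Mb of chromosome 12 and HOXD at 176.940 to 177.060 Mb of chromosome 2. A peak belonged to a cluster when it shared at least 1 base with the interval. This gave 36 of the 31077 peaks in H3.1-WT cells and 13 of the 35016 peaks in H3.1-K27M cells, over 577 kb in all. The intervals hold 38 HOX genes of the list used here, 10 in HOXA (HOXA2 to HOXA13), 10 in HOXB (HOXB1 to HOXB13), 9 in HOXC (HOXC4 to HOXC13) and 9 in HOXD (HOXD1 to HOXD13). No hg19 annotation was used, so peaks are located within a cluster and are not assigned to single genes.

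The assay was CUT&RUN, which tethers a nuclease to antibody-bound chromatin and sequences the released DNA fragments, here with an antibody to EZH2. The cells were HEK293, a human embryonic kidney line, infected with lentivirus, selected with G418 and treated with 1 µg/ml doxycycline in both genotypes. The H3.1-WT group and the H3.1-K27M group each had 1 EZH2 library and 1 library made with the secondary anti-rabbit HRP antibody as background. The titles of the second pair read H31, and the genotype label of the same samples names H3.1-K27M. The labels describe no removal of the endogenous H3 genes and do not say whether the infected cells were a clone or a pool. Each genotype thus has 1 list of peaks with no replicate, and no test between genotypes was made. The depth of each library is unknown, since the lists hold no reads. Less bound EZH2 and a shallower library cannot be told apart in such lists.

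EZH2 is the methyltransferase within the Polycomb complex PRC2 and adds methyl groups to histone H3 at lysine 27. In K27M that lysine is replaced by methionine, a change known to inhibit PRC2. HOX genes encode transcription factors that set position along the body axis, and their order in a cluster follows the order in which they are expressed along the embryo. Silent HOX genes are classic Polycomb targets, covered by H3K27 methylation over long stretches. The genes of paralog group 13 act at the tail end of the axis and the low-numbered genes toward the head. In RefSeq's gene order, group 13 lies at the high-coordinate end of HOXA and HOXB and at the low-coordinate end of HOXC and HOXD, which was taken to hold for hg19 too.

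Mammalian PRC2 is known to gather at CG-rich DNA, so the start regions of the member genes are shown first. RefSeq (GRCh38.p14) gave the 250 bases before a start for 20 of the 38 genes, 26 different windows in all. HOXB was represented by HOXB1 alone and HOXC by HOXC4 and HOXC5, so the values describe mainly HOXA and HOXD. The median window held 19.5 CG dinucleotides, against 11 over 34941 windows of all genes. At least 10 were present in 20 of the 26 HOX windows (76.9%) and in 52.1% of all windows. HOXA3 alone gave 7 of the 26 windows, with 0 to 26 CG, and without it the median of the other 19 was 21. The members differ widely among themselves. HOXA13, on the minus strand (chr7:27200092-27200341), held 40, a number reached by 2.17% of all windows. HOXD1, on the plus strand (chr2:176188418-176188667), held 31, and 10.8% of all windows had as many. HOXC4, on the plus strand (chr12:54016638-54016887), held 14 in a window it shares with HOXC5. HOXB1, on the minus strand (chr17:48531012-48531261), held 7, and HOXD4, on the plus strand (chr2:176151300-176151549), held 4. These positions are in GRCh38 and cannot be set against the hg19 peaks, so whether any window lay in a peak was not tested. The 5 windows are printed 5′ to 3′ in gene direction with each CG in capitals, as the richest and poorest cases of HOXD, the richest of HOXA, and the windows found for HOXB and HOXC. The poorest window of all, a HOXA3 start with 0 CG (chr7:27119596-27119845), is not printed.
HOXA13: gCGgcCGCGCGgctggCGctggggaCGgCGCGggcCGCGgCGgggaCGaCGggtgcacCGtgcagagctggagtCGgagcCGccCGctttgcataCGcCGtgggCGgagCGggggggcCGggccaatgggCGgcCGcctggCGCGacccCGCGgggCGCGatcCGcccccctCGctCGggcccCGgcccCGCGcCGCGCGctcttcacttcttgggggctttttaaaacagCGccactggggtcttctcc
HOXB1: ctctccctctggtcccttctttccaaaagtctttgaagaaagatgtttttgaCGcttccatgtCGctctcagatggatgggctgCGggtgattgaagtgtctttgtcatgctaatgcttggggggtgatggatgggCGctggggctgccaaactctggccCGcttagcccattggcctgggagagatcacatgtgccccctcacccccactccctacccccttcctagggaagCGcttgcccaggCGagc
HOXC4: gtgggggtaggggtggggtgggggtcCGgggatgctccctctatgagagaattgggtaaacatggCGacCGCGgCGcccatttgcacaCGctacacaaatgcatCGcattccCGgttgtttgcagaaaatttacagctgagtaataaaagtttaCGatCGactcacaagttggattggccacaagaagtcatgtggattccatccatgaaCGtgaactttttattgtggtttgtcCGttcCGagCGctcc
HOXD1: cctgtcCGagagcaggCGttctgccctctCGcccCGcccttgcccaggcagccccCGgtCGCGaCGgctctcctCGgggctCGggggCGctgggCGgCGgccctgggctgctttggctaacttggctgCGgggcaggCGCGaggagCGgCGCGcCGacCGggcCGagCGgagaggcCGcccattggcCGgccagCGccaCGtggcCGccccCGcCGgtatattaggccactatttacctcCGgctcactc
HOXD4: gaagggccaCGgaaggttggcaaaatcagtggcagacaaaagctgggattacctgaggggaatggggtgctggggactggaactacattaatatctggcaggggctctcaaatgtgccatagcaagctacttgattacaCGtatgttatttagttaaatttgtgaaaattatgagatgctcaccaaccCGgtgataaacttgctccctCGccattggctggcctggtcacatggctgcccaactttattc

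The first comparison asked how densely EZH2 peaks covered the clusters in H3.1-WT cells. All 4 clusters were more densely covered than most of the autosomes. HOXA held 5 peaks, HOXB 12, HOXC 8 and HOXD 11. Peaks covered 47.5 kb per Mb of HOXA, 74.1 of HOXB, 107.9 of HOXC and 177.5 of HOXD, and 97.0 kb per Mb of the 4 together. Autosomal windows as long as the HOXA interval, laid end to end, had a mean of 11.5 kb per Mb, and 58.9% of the 23039 windows held any H3.1-WT peak. Among autosomal windows of each cluster's own length, 4.61% held as many H3.1-WT peaks as HOXA, 0.978% as many as HOXB, 0.924% as many as HOXC and 0.238% as many as HOXD. Over the intervals as drawn, HOXD was thus the most densely covered cluster and HOXA the least. Peak number per Mb gave the same, with 91.7 and 40 peaks per Mb. The HOXB interval includes a stretch of 106206 bases without an H3.1-WT peak, so its place in this ranking depends on the interval.

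Coverage was lower outside the clusters. The flanks of 200 kb on each side held 13 H3.1-WT peaks over all 4 clusters, 8.13 per Mb against 62.4 per Mb inside. They were covered at 8.89 kb per Mb, so covered length per Mb was 10.9 times as high in the clusters. The quotient was 6.43 at HOXC, 11.9 at HOXB, 13.2 at HOXA and 19.8 at HOXD. At HOXC a 4134-base peak lay in the flank (54321124 to 54325257, fold enrichment 3.44), less than 10 kb from the interval on the side of HOXC13. A flank peak of higher fold lay beyond the far end of HOXC (54566048 to 54568290), with a fold enrichment of 5.45. RefSeq places CALCOCO1 next to HOXC13 and SMUG1 next to the other end of the cluster.

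**Figure D1:**
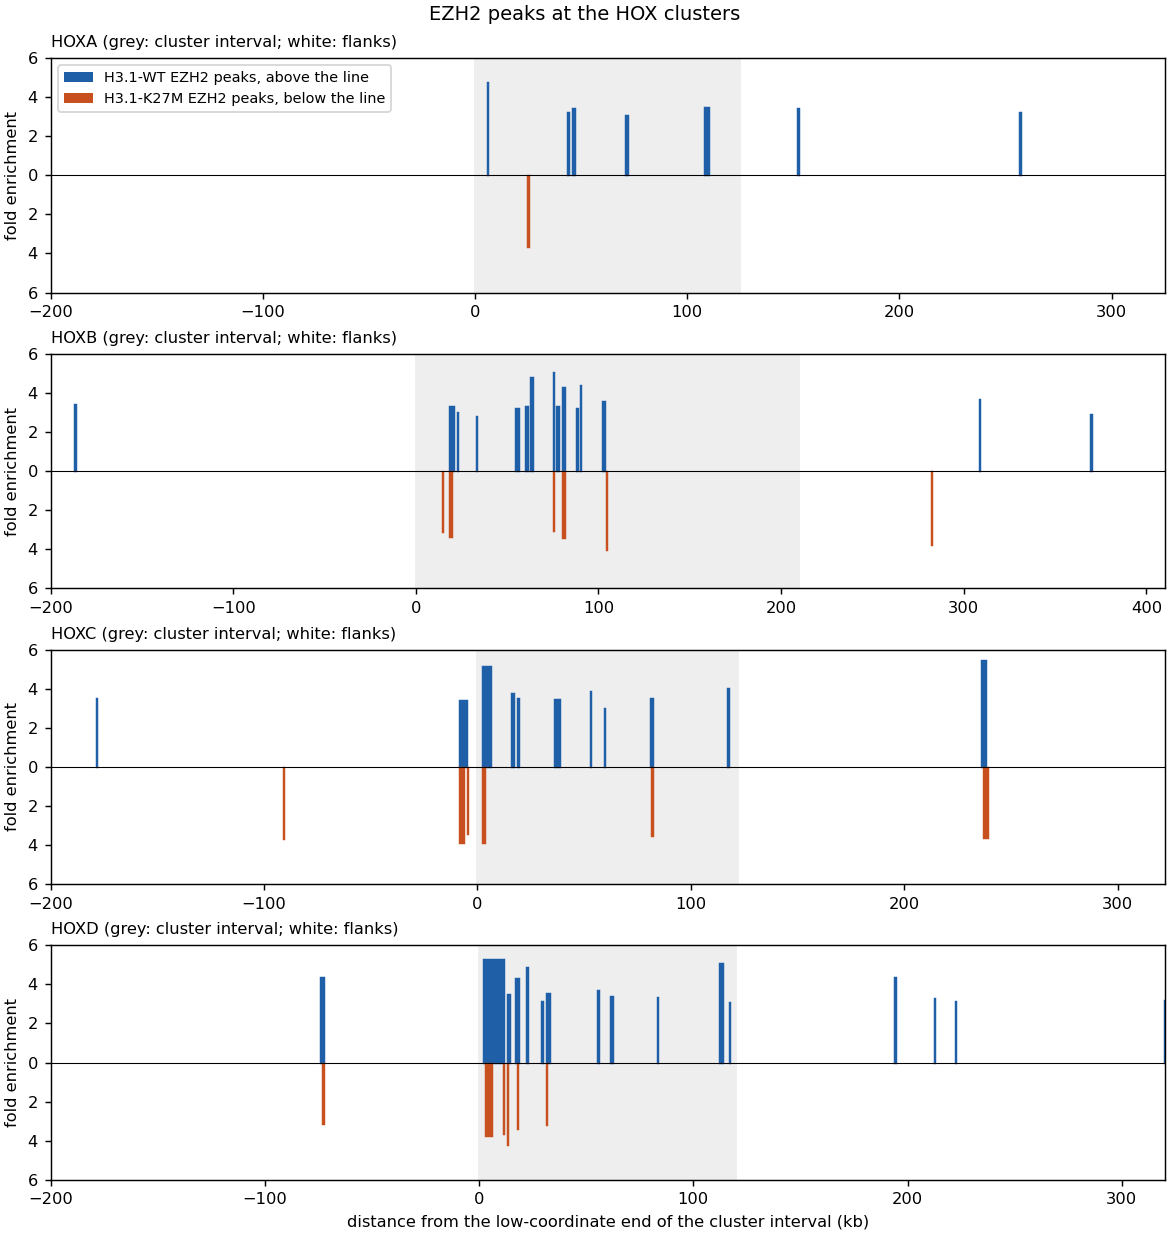
EZH2 peaks in the 4 HOX intervals (grey) and their 200 kb flanks (white), by distance in kb from the low-coordinate end of the interval. Bars span the peak, and their height is the authors' fold enrichment, upward for H3.1-WT and downward for H3.1-K27M; the 36 H3.1-WT peaks crowd inside the grey areas, the 13 H3.1-K27M peaks sit mostly opposite H3.1-WT peaks, and the right-hand part of the grey HOXB interval is empty in both.

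In H3.1-K27M cells every cluster held fewer peaks. HOXA held 1, HOXB 5, HOXC 2 and HOXD 5, so that the ratio of H3.1-K27M to H3.1-WT peaks was 0.2, 0.417, 0.25 and 0.455. Over the 4 clusters the ratio was 0.361, with a conditional exact 95% interval of 0.176 to 0.697 that covers counting error only and treats peaks as independent. Over all autosomes the lists were of nearly equal length, with a ratio of 0.976. Covered length fell further than number, from 55941 to 12153 bases, a ratio of 0.217. It was 6.34 kb per Mb in HOXA, 21.0 in HOXB, 19.01 in HOXC and 38.6 in HOXD, against a mean of 12.01 over autosomal windows. HOXA was therefore less covered than the mean window, and the other 3 clusters more. A peak of H3.1-K27M was present in 44.6% of the windows as long as HOXA. At each cluster's own length, 44.6% of windows held as many H3.1-K27M peaks as HOXA, 22.95% as many as HOXC, 13.04% as many as HOXB and 7.16% as many as HOXD.

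The flanks held 6 H3.1-K27M peaks against 13 in H3.1-WT, a ratio of 0.462. Flank peaks were fewer in H3.1-K27M at HOXA, HOXB and HOXD, while the HOXC flanks held 4 against 3 in H3.1-WT. Over all 4 clusters H3.1-K27M flank coverage was 4.47 kb per Mb, and the clusters were covered 4.71 times as densely. This quotient rests on HOXC, whose flanks held 4 of the 6 peaks and 5664 of the 7153 covered bases. Without HOXC it was 17.4.

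**Figure D2:**
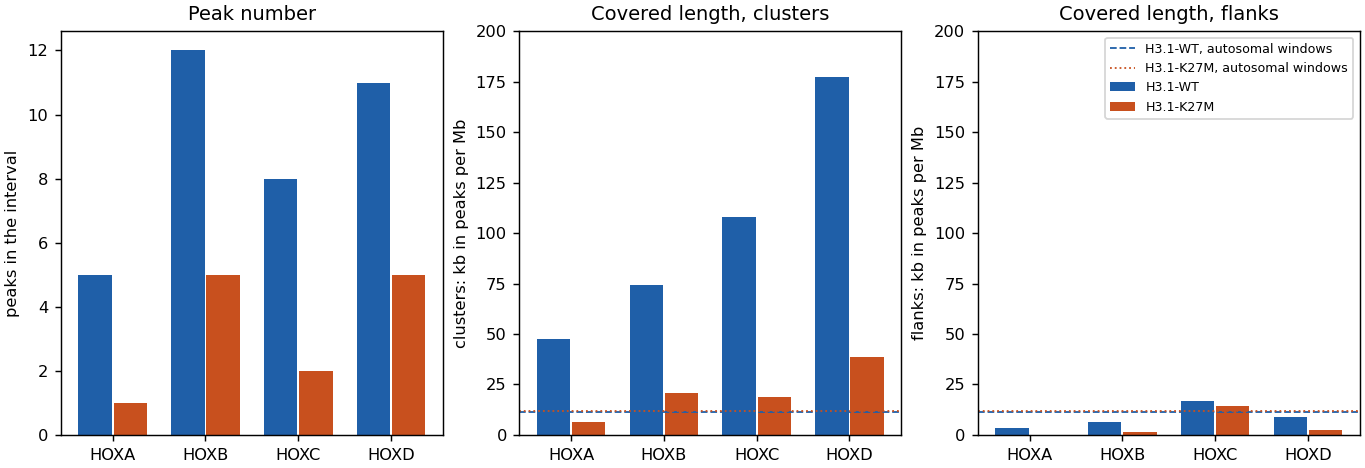
Number of EZH2 peaks in each HOX interval (left), kb in peaks per Mb of the interval (middle) and kb in peaks per Mb of its flanks (right), with 1 library per bar and no error bars. Dashed and dotted lines are the means over autosomal windows, 11.5 for H3.1-WT and 12.01 for H3.1-K27M; the H3.1-WT bars of all 4 clusters stand above them, as do the H3.1-K27M bars of all but HOXA.

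Windows with at least as many peaks as HOXA, the cluster with the fewest, were set beside the clusters. Of 1061 autosomal windows as long as HOXA with at least 5 H3.1-WT peaks, the number in HOXA, 54.5% held fewer H3.1-K27M than H3.1-WT peaks, as all 4 clusters did. A ratio no higher than that of HOXD, the highest of the 4, was found in 27% of these windows. This share pairs the lowest H3.1-WT peak number of the 4 clusters with their highest ratio. Among windows with 11 H3.1-WT peaks, the number in HOXD, 1 held 3 H3.1-K27M peaks and all others at least 6. How common each cluster's ratio is at its own peak number was not worked out. Choosing windows by H3.1-WT peaks can favour low ratios, but the totals of the 1061 windows showed no such lean. They held 6853 H3.1-K27M peaks against 6953 of H3.1-WT. That ratio was 0.986, against 0.977 over all autosomal windows of this length. H3.1-K27M peaks covered 84.5 kb per Mb of the 1061 windows and H3.1-WT peaks 65.3. The median window among them held 6 H3.1-WT peaks and 5 H3.1-K27M peaks. Windows chosen by both lists let in those dense in H3.1-K27M alone. Of 2856 windows with at least 6 peaks in the lists together, 29% held fewer H3.1-K27M peaks, 59.5% held more, and 9.07% had a ratio no higher than that of HOXD. The lists also differ by chromosome band: the ratio of peaks was 0.743 in light Giemsa bands and 1.15 in all other autosomal bands. HOXC and HOXD lie in light bands, HOXB in a band of the palest grey and HOXA in a mid-grey band. In light bands alone 66.8% of 379 windows with at least 5 H3.1-WT peaks held fewer H3.1-K27M peaks, and 33.5% had a ratio no higher than that of HOXD. For the 948 light-band windows chosen by both lists these shares were 38.5% and 12%. HOXB is longer than these windows, so its counts are not directly comparable. The windows were laid out without regard to genes and describe the lists, with no test of the clusters against them.

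**Figure D3:**
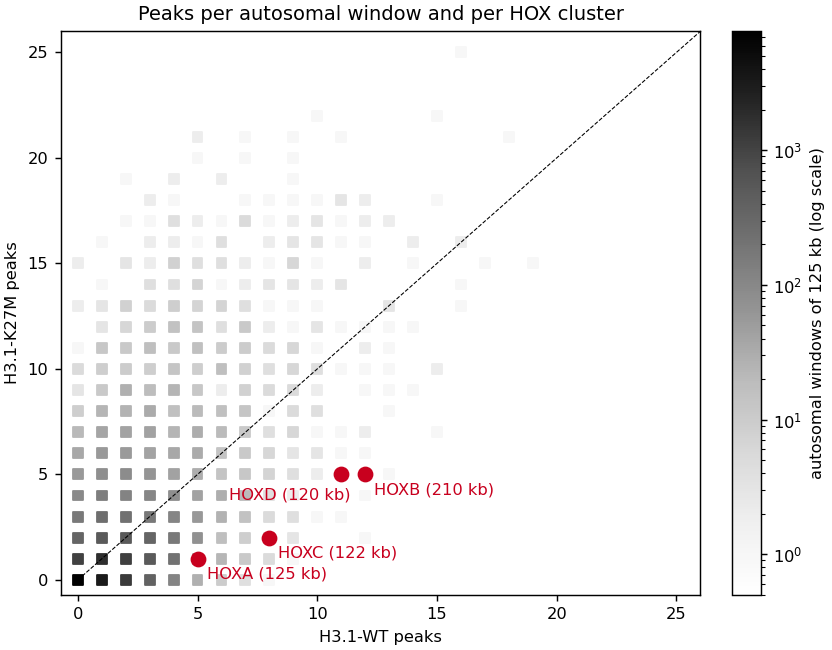
Peaks per autosomal window as long as the HOXA interval in H3.1-WT (horizontal) and H3.1-K27M (vertical), shaded by the number of windows on a log scale, with the 4 HOX clusters as red points labelled with their lengths. The dashed line marks equal numbers; all 4 clusters lie below it, HOXA at 5 and 1, HOXC at 8 and 2, HOXD at 11 and 5 and HOXB at 12 and 5.

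Peaks in the clusters were many, and in H3.1-WT their median strength was close to that of the whole list. Strength is given by the authors' −log10 q, where a higher value is a more confident peak. In H3.1-WT the median was 1.87 in the clusters and 1.82 over all autosomal peaks, and the median fold enrichment was 3.52 and 3.43. A −log10 q of at least 2 was reached by 17 of the 36 peaks (47.2%), against 42.4% of autosomal peaks. At least 3 was reached by 10 (27.8%, against 19.4%) and at least 5 by 4 (11.1%, against 6.97%). At a minimum of 4 the shares were 22.2% and 10.9%, and at 6.3 they were 0% and 4.72%. Moderately strong peaks thus had a larger share in the clusters, by small counts, and the strongest of the list lay elsewhere. The highest value was 6.26, in HOXB. The peaks were broader than usual, with a median width of 1234.5 bases against 778, and 22 of 36 (61.1%) were at least 1 kb wide, against 38.1%.

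In the clusters no H3.1-K27M peak reached a −log10 q of 3, while their median strength was above that of the list. The median −log10 q was 1.80 against 1.58 over autosomal peaks, and the median fold enrichment was 3.55 against 3.36. The highest −log10 q was 2.98, in HOXD. A value of at least 2 was reached by 5 of 13 peaks, 38.5% against 25.6% of autosomal peaks, and 0 reached 3, against 7.48%, or 5, against 2.19%. Median width was 757 bases, against 810 over autosomes. Peaks with at least 3 were fewer in H3.1-K27M on the autosomes too, at a ratio of 0.377 (5618 and 2119 peaks), and in the clusters they numbered 10 and 0. With so few peaks the counting interval of this last ratio runs from 0 to 0.446 and includes the autosomal value. At a minimum of 2 the clusters had a ratio of 0.294 (17 and 5 peaks), with an interval of 0.0848 to 0.831 that includes the autosomal 0.588. Over all peaks the upper limit of 0.697 was under the autosomal 0.976, which describes these counts and is no test between genotypes. The interval treats neighbouring peaks as independent. Joining peaks within 5000 bases left 23 and 9, a ratio of 0.391, for which no interval was computed.

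**Figure D4:**
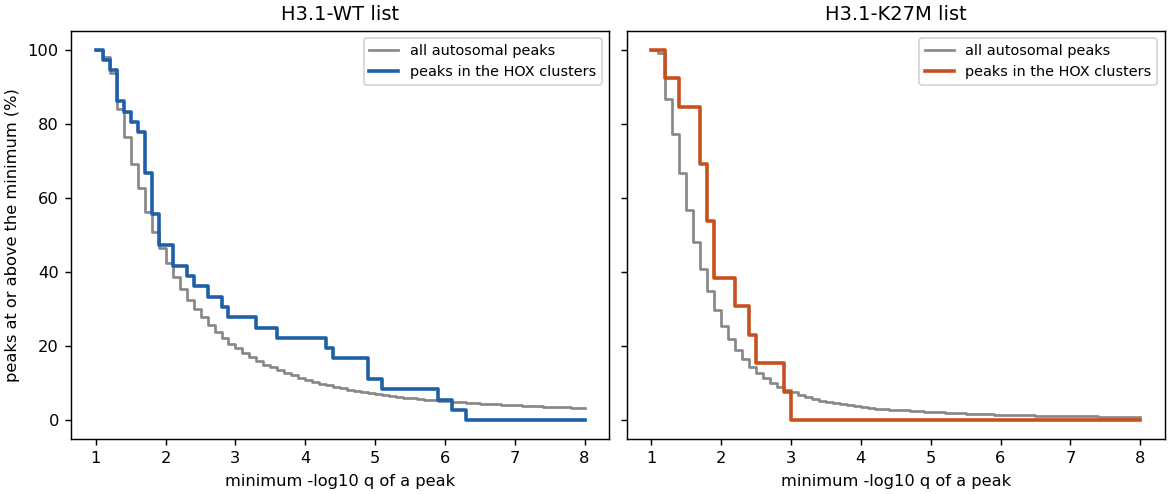
Share of peaks (%) at or above each minimum −log10 q, for H3.1-WT (left) and H3.1-K27M (right), in the HOX clusters (coloured) and over all autosomal peaks (grey). The H3.1-WT curves lie close at a minimum of 2, with 47.2% and 42.4%, and farther apart at 4, with 22.2% and 10.9%. The coloured H3.1-K27M curve reaches 0 before a minimum of 3.

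The next comparison asked whether the peaks that remained in H3.1-K27M lay at the same sites. They mostly did. Of the 13 H3.1-K27M peaks, 10 overlapped an H3.1-WT peak (76.9%, exact Clopper-Pearson 95% interval 46.19% to 94.96%), against 35.3% of autosomal H3.1-K27M peaks. All 7 in HOXC and HOXD did, 3 of 5 in HOXB, and 0 of 1 in HOXA. The clusters hold more H3.1-WT peaks per Mb than the autosomes, so more overlap by position alone was to be had there. Of the 10 overlapping peaks 9 were narrower than their H3.1-WT partner, and the same 9 lay wholly inside it. The bases of H3.1-K27M peaks in the clusters were in H3.1-WT peaks for 81.5%, and those of H3.1-WT peaks in H3.1-K27M peaks for 17.7%.

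In the other direction 9 of 36 H3.1-WT peaks were overlapped (25%, 12.1% to 42.2%), against 34.7% of autosomal H3.1-WT peaks. By cluster these were 0 of 5 in HOXA, 3 of 12 in HOXB, 2 of 8 in HOXC and 4 of 11 in HOXD. By strength the overlapped peaks were 3 of 4 with a −log10 q of at least 5, 2 of 6 from 3 to 5, 2 of 7 from 2 to 3 and 2 of 19 under 2. On autosomes the shares were 83.5%, 51.4%, 36.5% and 24.5%. The HOX shares were lower at each strength, by counts too small to set them apart from the autosomal ones, which lie within the counting intervals. Of the 27 H3.1-WT peaks with no partner, 22 lay over 5 kb from any H3.1-K27M peak.

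HOXD, which patterns limbs, digits and the genital tubercle, held the widest peak. In H3.1-WT it spanned 9897 bases at the group 13 end (chr2:176941812-176951708), with a fold enrichment of 5.31 and a −log10 q of 5.84. RefSeq places EVX2, another homeobox gene, next to HOXD13 on this side, and which of them the peak covers was not determined. H3.1-K27M peaks lay inside it at 176942992 to 176945846 (2855 bases, fold 3.79) and at 176951268 to 176951574 (307 bases, fold 3.65). Together they covered 3162 of its 9897 bases. The H3.1-K27M peak with the highest fold of the cluster was 310 bases wide (176953210 to 176953519, fold 4.22, −log10 q 2.98), inside an H3.1-WT peak of 1638 bases with a fold of 3.52. All 5 H3.1-K27M peaks lay on the HOXD13 side of the midpoint of the interval, as did 7 of the 11 H3.1-WT peaks. The HOXD1 side held 4 H3.1-WT peaks and 0 H3.1-K27M peaks, and the last 88263 bases of the interval were free of them. The strongest H3.1-WT peak there (177051766 to 177053650, 1885 bases, fold 5.11, −log10 q 5.002) was 80028 bases from the nearest H3.1-K27M peak. Another H3.1-WT peak (176962115 to 176962752, 638 bases, fold 4.87, −log10 q 4.85) also had no partner, though an H3.1-K27M peak lay within 5 kb.

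HOXC, whose HOXC13 is known for its part in hair and nail formation, had its leading peak at the group 13 end too. The H3.1-WT peak chr12:54331925-54336536 spanned 4612 bases with a fold enrichment of 5.15 and a −log10 q of 6.06. The H3.1-K27M peak began at the same base and ended at 54333486, after 1562 bases, with a fold of 3.89 and a −log10 q of 2.45. The other shared site lay farther in, where H3.1-WT had 1685 bases (54410785 to 54412469, fold 3.54, −log10 q 1.88) and H3.1-K27M 757 bases (54411432 to 54412188, fold 3.55, −log10 q 1.78). Among the 6 peaks of H3.1-WT alone the highest folds were 4.03 at 54447078 to 54447998 (921 bases) near the HOXC4 end and 3.87 at 54382851 to 54383321 (471 bases). On the HOXC13 side of the midpoint lay 6 of the 8 H3.1-WT peaks and 1 of the 2 H3.1-K27M peaks.

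In HOXB all 12 H3.1-WT peaks and all 5 H3.1-K27M peaks lay on the HOXB1 side of the midpoint of the interval. From 46703795 to the end of the interval, 106206 bases toward HOXB13, H3.1-WT had no peak, and H3.1-K27M had none in the last 105441 bases. HOXB13 is known to stand far from HOXB9, its nearest neighbour among the HOXB genes. The split at the midpoint is therefore not directly comparable with that of HOXC and HOXD. How the HOXB genes fall on each side of it was not determined. The highest H3.1-WT fold enrichment was 5.09, at chr17:46675104-46675691 (588 bases, −log10 q 6.26), and H3.1-K27M had a 299-base peak within it (46675277 to 46675575, fold 3.08, −log10 q 1.80). At 46679852 to 46681397 H3.1-WT had a fold of 4.30 and a −log10 q of 4.84, and H3.1-K27M a peak of 1692 bases (46679895 to 46681586, fold 3.44, −log10 q 1.80) that ended beyond it, the single pair in which the H3.1-K27M peak was the wider. The widest H3.1-WT peak, 2507 bases at 46618380 to 46620886 (fold 3.33), held the remaining H3.1-K27M partner of 1149 bases (46618392 to 46619540, fold 3.35). The next highest H3.1-WT folds, 4.80 at 46662543 to 46664357 (1815 bases, −log10 q 4.37) and 4.40 at 46690144 to 46690609 (466 bases, −log10 q 3.27), had no partner. The highest H3.1-K27M fold, 4.03, belonged to a 331-base peak (46704229 to 46704559, −log10 q 2.80) that lay 434 bases beyond the last H3.1-WT peak without touching it.

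HOXA, whose HOXA13 and HOXA11 act in the limb and the urogenital tract, shared no peak between genotypes. The strongest H3.1-WT peak lay near the low-numbered end (chr7:27135430-27136018, 589 bases) with a fold enrichment of 4.80 and a −log10 q of 4.23. The widest was near the HOXA13 end (27238092 to 27240429, 2338 bases, fold 3.48, −log10 q 1.78). The other 3 had folds of 3.07 to 3.45, of which the highest was at 27175941 to 27177166 (1226 bases, −log10 q 1.86). The single H3.1-K27M peak (27154619 to 27155410, 792 bases, fold 3.69, −log10 q 2.12) was 18164 bases from the nearest H3.1-WT peak. No H3.1-K27M peak lay in the HOXA flanks, where H3.1-WT had 2, the nearer at 27281961 to 27282626 with a fold of 3.42. EVX1 is the next gene beyond HOXA13 in RefSeq. Only 1 of the 5 H3.1-WT peaks reached a −log10 q of 2, so the absence of partners here concerns mostly weak peaks.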

How the data were processed

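CUT&RUN peak lists of 2 genotypes were used, each called on 1 EZH2 library against 1 HRP library, per the peak names in the files. Per the submitters' processing notes, hg19 was the build, and the tools included MACS2, Bowtie2 2.3.5.1, deepTools, cutadapt and Picard, with no roles or parameters. Each peak carries a fold enrichment, a ratio over background computed by the authors' caller, and −log10 p and −log10 q values, deposited as such, with a lowest −log10 q of 1.006 (H3.1-WT) and 1.002 (H3.1-K27M). Depth and scaling between libraries are not given in the sources used here. No peaks were removed.

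All peaks ended within hg19 chromosome lengths (0 past an end). Positions are 1-based hg19 unless GRCh38 is named. Peaks overlapping an interval by at least 1 base were counted, and bases in peaks were summed within the interval. Chromosome lengths and Giemsa bands came from circlize 0.4.16 (R 4.3.3), and a window or peak took the band of its midpoint. Autosomal windows were laid end to end from the first base of each chromosome, assembly gaps included. Counting and overlap were tested on simulated peaks and against bedtools 2.31.1. Python 3.11.15, scipy 1.17.1 and matplotlib 3.10.9 were used.

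Named peaks are the 3 with the highest fold per cluster and list and the widest, with partners of overlapping peaks added. The intervals, members and comparisons were chosen with earlier results of these data known. The Polycomb and cofactor genes listed for comparison were not analysed here, for want of an hg19 annotation. The alternatives were minimums of −log10 q, equal list lengths (the top 31077 peaks), peaks within 5000 bases joined, assignment by midpoint, intervals widened by 10 kb, stricter overlap and flanks of 100 kb. Leaving out an interval or the widest peak, windows of each cluster's own length, windows with at least 6 peaks of both lists or 5 of H3.1-WT and the comparison by bands were chosen after seeing the data.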

Additional observations from a re-analysis of the deposited data

How the results depend on the processing

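Peaks in the clusters were fewer in H3.1-K27M under each alternative run, with ratios from 0.294 to 0.405 where H3.1-K27M kept any. At a −log10 q of at least 2, 17 H3.1-WT and 5 H3.1-K27M peaks covered 56.5 and 10.1 kb per Mb, and the H3.1-K27M clusters were covered 2.85 times as densely as the flanks. At a minimum of 3 there were 10 and 0 peaks, covering 41.2 and 0 kb per Mb. The minimum cut both lists, so the 0% of H3.1-WT peaks overlapped was fixed by the cut. Against the uncut H3.1-K27M list, 5 of these 10 H3.1-WT peaks (50%) were overlapped. At 5 there were 4 and 0, covering 29.4 and 0 kb per Mb, with a quotient of H3.1-WT clusters over flanks of 21.0. The 0% overlapped at 5 was fixed in the same way, and 3 of the 4 were overlapped by the uncut list. No H3.1-K27M quotient exists at 3 or 5, since its flanks then hold no peak. These minimums leave fewer peaks by construction. Joining peaks within 5000 bases left 23 H3.1-WT peaks, raised H3.1-K27M coverage to 44.1 kb per Mb, gaps included, and its quotient to 8.35. Widening the intervals by 10 kb moved that quotient to 8.74, and leaving out HOXC to 17.4. Widening moves 2 of the 4 HOXC flank peaks of H3.1-K27M into the interval, and leaving HOXC out removes all 4. A reciprocal overlap of 50% left 5.56% of H3.1-WT peaks with a partner. The other 52 values kept within 1.5 times the value reported or, for the overlap share, within its counting interval. No paired analysis was possible because each genotype had 1 EZH2 library. Unknown depth and 1 library per group limit every comparison between genotypes.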
